A study of Mus musculus with 2 samples.

Results

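Neutrophils that carry transcripts of Retnlg or Mmp8 were examined in 4T1 mammary tumours of mice given beta-elemene or saline. They were picked out cell by cell from raw counts of unique molecular identifiers (UMIs). Barcodes with fewer than 200 genes or with more than 20% of UMIs from mitochondrial genes were set aside. A remaining barcode was taken as a neutrophil with at least 2% of its UMIs from S100a8 and S100a9 together, at least 2 UMIs of Csf3r, Cxcr2, Hdc and G0s2 together, at most 1 UMI of C1qa, C1qb and C1qc together, and none of Cd3e. At least 2 UMIs of Retnlg and Mmp8 together then made it a Retnlg/Mmp8 neutrophil, and the remaining neutrophils are called Retnlg/Mmp8-low. The rule took 520 of 10861 kept barcodes in the beta-elemene library and 278 of 10803 in the vehicle library, 798 of 21664 in all. The Retnlg/Mmp8-low neutrophils numbered 686 in the beta-elemene library and 456 in the vehicle library.

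The tumours were raised by placing cells of the mouse line 4T1, a model of triple-negative breast cancer, in the mammary fat pad. Mice of the beta-elemene group received this plant sesquiterpene by daily injection into the abdomen at 30 mg/kg, and mice of the vehicle group received saline in equal volume, both for 18 days. Each group was 1 single-cell library made with 3' droplet chemistry. The strain and age of the mice and the number of tumours behind each library are not given in the sources used here. No difference between the groups has a replicate check, no test was made, and every interval below is a 95% interval that covers counting error only.

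Neutrophils leave the bone marrow with preformed granules. Proteins of the specific granules, such as lactoferrin and Ngp, are transcribed during maturation in the marrow, and those of the gelatinase granules somewhat later. Retnlg encodes a resistin-like secreted protein and Mmp8 the neutrophil collagenase, and both are used as markers of mature, recently released mouse neutrophils. In tumours, neutrophils lose such transcripts and can take up a programme of chemokines, Il1b and hypoxia genes. S100a8 and S100a9 encode the subunits of calprotectin, the most abundant cytosolic protein of these cells, Csf3r the receptor of the growth factor that drives their production, and Cxcr2 the chemokine receptor that calls them into tissue.

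Promoters of 6 genes on which the comparisons turn are given here, each as 250 bases before to 50 bases after the RefSeq start of transcription in GRCm38.p6, read along the gene's strand. Those of Retnlg and Mmp8 belong to the genes of the rule, Lcn2 and Ngp to granule proteins, and Isg15 and Ifit1 to the interferon response. Capitals mark matches to TTGCNNAA on either strand, a short form of the site of C/EBP factors, in the promoters of Retnlg (chr16:48872358-48872657, plus strand), Mmp8 (chr9:7558179-7558478, plus strand), Lcn2 (chr2:32387690-32387989, minus strand) and Ngp (chr9:110419558-110419857, plus strand). In the promoters of Isg15 (chr4:156200769-156201068, minus strand) and Ifit1 (chr19:34640639-34640938, plus strand) they mark TTTC, any 2 bases and TTTC again, on either strand, a short form of the interferon-stimulated response element.
Retnlg: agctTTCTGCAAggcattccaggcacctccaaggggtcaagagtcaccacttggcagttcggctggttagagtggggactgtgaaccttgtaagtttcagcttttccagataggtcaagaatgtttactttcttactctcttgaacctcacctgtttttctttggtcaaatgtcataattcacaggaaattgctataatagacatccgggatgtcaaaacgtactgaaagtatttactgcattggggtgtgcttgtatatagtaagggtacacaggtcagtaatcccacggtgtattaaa
Mmp8: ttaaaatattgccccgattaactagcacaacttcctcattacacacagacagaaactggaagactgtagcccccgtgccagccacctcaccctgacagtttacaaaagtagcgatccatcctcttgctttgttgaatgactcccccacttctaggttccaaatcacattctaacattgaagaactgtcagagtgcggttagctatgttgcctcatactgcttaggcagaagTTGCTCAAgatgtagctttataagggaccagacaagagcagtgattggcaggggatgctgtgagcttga
Lcn2: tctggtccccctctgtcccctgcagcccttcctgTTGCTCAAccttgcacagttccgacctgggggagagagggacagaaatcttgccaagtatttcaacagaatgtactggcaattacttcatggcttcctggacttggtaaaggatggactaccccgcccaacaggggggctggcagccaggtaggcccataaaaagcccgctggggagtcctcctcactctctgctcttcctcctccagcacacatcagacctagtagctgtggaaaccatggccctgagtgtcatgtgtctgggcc
Ngp: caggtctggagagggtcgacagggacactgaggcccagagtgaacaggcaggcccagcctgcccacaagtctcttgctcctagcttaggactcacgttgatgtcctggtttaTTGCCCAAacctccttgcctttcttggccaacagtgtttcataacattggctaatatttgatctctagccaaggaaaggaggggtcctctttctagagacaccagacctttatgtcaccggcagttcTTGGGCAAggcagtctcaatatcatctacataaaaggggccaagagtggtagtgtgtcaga
Isg15: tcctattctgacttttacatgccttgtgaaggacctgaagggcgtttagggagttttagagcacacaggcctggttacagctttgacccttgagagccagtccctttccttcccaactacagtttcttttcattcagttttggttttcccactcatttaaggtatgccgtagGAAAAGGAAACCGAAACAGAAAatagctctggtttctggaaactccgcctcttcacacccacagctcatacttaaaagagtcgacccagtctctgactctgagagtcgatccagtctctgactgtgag
Ifit1: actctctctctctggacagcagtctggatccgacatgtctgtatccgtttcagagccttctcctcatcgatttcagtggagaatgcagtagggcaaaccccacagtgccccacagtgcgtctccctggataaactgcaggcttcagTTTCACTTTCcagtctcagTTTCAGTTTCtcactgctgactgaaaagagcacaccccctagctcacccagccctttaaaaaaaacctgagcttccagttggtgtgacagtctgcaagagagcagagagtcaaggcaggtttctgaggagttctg
The C/EBP form was present in 10.8% of all 32851 RefSeq promoters of this length and the interferon form in 3.44%, which is 12.2% and 3.99% of the 27025 genes with a promoter. Of 14 specific granule genes 12 had a promoter in the table, and 5 of these held the C/EBP form. The interferon form was found in the promoters of 12 of 22 genes of the type I interferon list, 11 of 20 of the interferon gamma list and 5 of 11 of the genes named below as highest in the beta-elemene library. Of the last, Ifit1, Irgm2, Igtp and Isg15 also belong to these lists. The promoters of Nmi and Herc6, also named below, held no interferon form. Ly6g, counted among the 5 with the C/EBP form, also has a promoter without it. Matches of a form can overlap, as the 3 in Isg15 do. A match describes these letters only. Gene positions given below are those of GENCODE vM21 on mm10.

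The cells chosen by the rule carried the transcripts that define neutrophils. UMIs were summed over the cells of a library and scaled to a common total, as CPM. S100a8 stood at 63673 CPM in the beta-elemene library and 92185 CPM in the vehicle library, and S100a9 at 104117 and 110190 CPM. Cxcr2 stood at 485 CPM in the beta-elemene library and 464 CPM in the vehicle library, and Csf3r at 785 and 773 CPM. These genes belong to the rule or were markers of the class, so their levels describe how the cells were chosen. Most lists of markers of other cells summed to less than in barcodes that were not neutrophils. A list of 10 macrophage markers, 3 of them capped by the rule, summed to 610 CPM in the beta-elemene library and 546 CPM in the vehicle library, against 6747 and 5389 CPM in the barcodes that were not neutrophils. Monocyte markers summed to 738 CPM in the beta-elemene library and 647 CPM in the vehicle library, against 2201 and 2248 CPM in those barcodes, and 67.9% and 69.4% of Retnlg/Mmp8 neutrophils had a UMI of them. Dendritic cell markers summed to 141 and 259 CPM, against 1968 and 1463 CPM, with UMIs in 34.6% and 32.4% of cells and Flt3, Xcr1 and Ccr7 at 0 in both libraries. Of 8 T and NK cell markers 4 had UMIs in the beta-elemene library and 5 in the vehicle library, in 7.31% and 9.35% of cells, with Ncr1 and Klrb1c at 0 in both and Cd3e at 0 by the rule. The B cell genes Cd79a, Cd79b and Ms4a1 were at 0 in both. Fibroblast markers summed to 189 and 193 CPM, against 3216 and 3202 CPM. Mast cell and basophil markers, at 14.7 and 16.9 CPM, were no lower than the 14.3 and 15.8 CPM of other barcodes, and neither were eosinophil markers, at 3.07 and 2.98 CPM against 1.35 and 2.03 CPM, although Prg2, Epx, Ear1 and Ear6 were at 0. Single cells stood out. In the vehicle library 1 cell held 35.7% of the malignant-cell marker UMIs, whose sum was 345 CPM in the beta-elemene library and 571 CPM in the vehicle library, and 1 beta-elemene cell held 59.4% of the endothelial ones, whose sum was 104 CPM in the beta-elemene library and 34.8 CPM in the vehicle library, against 96.5 and 87.8 CPM in barcodes that were not neutrophils. Their part in the results was not tested.

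Retnlg/Mmp8 neutrophils were shallow cells, with a median of 2599 UMIs and 890 genes in the beta-elemene library and 2776 UMIs and 914 genes in the vehicle library. Other kept barcodes had medians of 12362 and 13670 UMIs, and Retnlg/Mmp8-low neutrophils of 1895 and 1840 UMIs. The sums behind the ratios below hold 1630701 UMIs in the beta-elemene library and 1007171 UMIs in the vehicle library. A few deep cells weigh on them: 8 beta-elemene cells over 10000 UMIs held 7.67% of the sum, and 12 vehicle cells held 17.0%. Doublet calling marked 3 of the beta-elemene cells and 2 of the vehicle cells. The libraries shared 37 barcodes, none of them a Retnlg/Mmp8 neutrophil in both.

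Retnlg/Mmp8 neutrophils made up 4.79% of kept barcodes (4.39 to 5.21) in the beta-elemene library and 2.57% (2.28 to 2.89) in the vehicle library, a difference of 2.21 percentage points (1.72 to 2.72) and a ratio of 1.86. Retnlg/Mmp8-low neutrophils also had the higher share in the beta-elemene library, at 6.32%, against 4.22% in the vehicle library. Within the neutrophils the gap was small, with 43.1% (40.3 to 46.0) of them above the Retnlg and Mmp8 limit in the beta-elemene library and 37.9% (34.4 to 41.5) in the vehicle library. That difference of 5.24 points (0.730 to 9.68) had an interval that reached 0 when the limit was 1 UMI (4.56 points, -0.019 to 9.12) or 3 UMIs (3.01 points, -1.36 to 7.30), and when cells were thinned to 1000 UMIs each (3.38 points, -1.13 to 7.77). These cells lie near the lower end of the UMI range, so the UMI count at which a barcode was called a cell can set their share, and its part was not tested.

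**Figure D1:**
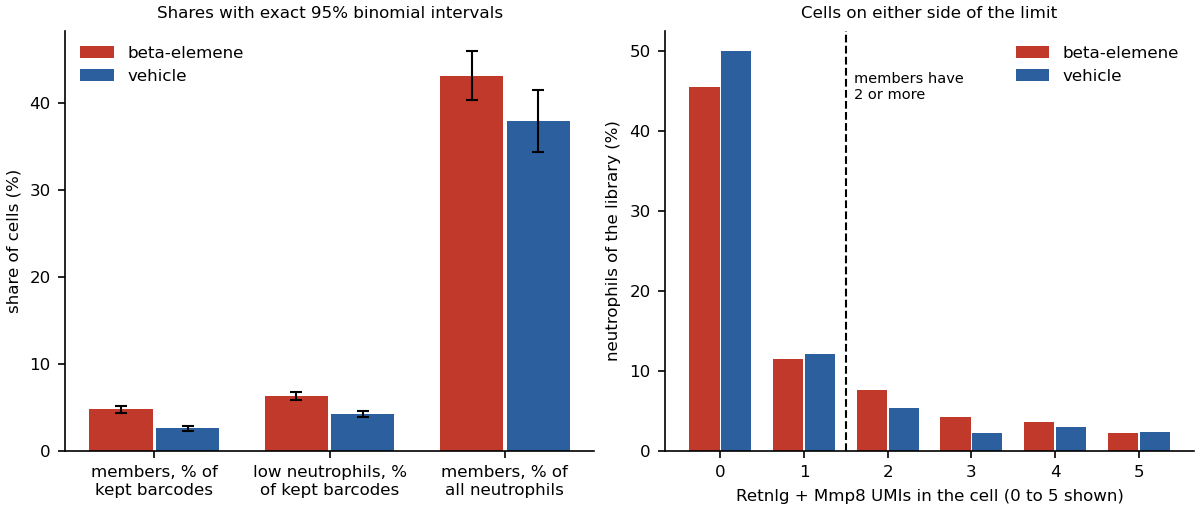
Left, the share of kept barcodes that were Retnlg/Mmp8 neutrophils (members) and Retnlg/Mmp8-low neutrophils, and the share of neutrophils that were members, in percent, with bars for the beta-elemene and vehicle libraries and exact 95% binomial intervals. Right, the percentage of each library's neutrophils with 0 to 5 UMIs of Retnlg and Mmp8, where the beta-elemene library has 45.4% and the vehicle library 50.0% of neutrophils at 0 and the dashed line marks the limit of the rule.

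The limit cut through a continuous range. In the beta-elemene library 138 neutrophils had 1 UMI of Retnlg and Mmp8, just outside, and 91 had exactly 2, just inside. In the vehicle library the numbers were 89 and 39. Chosen cells had a median of 8 such UMIs in the beta-elemene library and 10 in the vehicle library, with the highest cell at 320 and 336. Retnlg carried most of the choice, since 302 of the beta-elemene cells and 148 of the vehicle cells had Retnlg and no Mmp8, 200 and 116 had both, and 18 and 14 had Mmp8 alone. Cells with both were deeper, with median UMIs of 3229 in the beta-elemene library and 3649 in the vehicle library, against 2354 and 2495 in those with Retnlg alone.

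Retnlg/Mmp8 neutrophils were next set against the Retnlg/Mmp8-low neutrophils of the same library, to see what else went with Retnlg and Mmp8. Specific granule genes were higher in them in both libraries, and genes of inflammatory signalling and chemokines were lower. A gene was measured with at least 50 UMIs in both sums together, and counted as higher or lower when the ratio of CPM was at least 1.5-fold with an interval that excluded 1, with the genes of the rule left out. In the beta-elemene library 5.14% of 4413 measured genes were higher and 14.5% lower, and in the vehicle library 7.80% of 3437 were higher and 24.3% lower. Of 3416 genes measured in both libraries 117 (3.43%) were higher and 337 (9.87%) lower in both. S100a8 and S100a9 take a larger part of the total in the cells chosen by the rule, and the split differed with the scaling. With totals that leave out mitochondrial, ribosomal, Gm42418 and rule genes it was 192 higher and 157 lower, and scaled by the median ratio 205 and 147. The median log2 ratio of all measured genes was -0.17 in the beta-elemene library and -0.27 in the vehicle library, and lists are read against these values.

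Of 12 specific granule genes measured in both libraries 7 were higher in Retnlg/Mmp8 neutrophils in both and none was lower. The list, and these 7, include Ly6g, which encodes a surface protein. The median log2 ratio of the list was 0.66 in the beta-elemene library (13 measured) and 2.89 in the vehicle library (12 measured). Without the granule-rich cells described below the medians were 1.06 and 1.20, and after thinning to 1000 UMIs 0.63 and 1.14. Ly6g (chromosome 15, 75155240 to 75159126), the surface marker that identifies mouse neutrophils, had 212 CPM in Retnlg/Mmp8 neutrophils and 23.3 CPM in Retnlg/Mmp8-low neutrophils of the beta-elemene library, a ratio of 9.06 (6.30 to 13.5). In the vehicle library it had 245 and 17.2 CPM, a ratio of 14.3 (8.49 to 25.9). Lcn2 (chromosome 2, 32384633 to 32388252), which binds bacterial iron carriers, had 2495 and 832 CPM in the beta-elemene library, with a ratio between 2.81 and 3.21, and 3385 and 391.6 CPM in the vehicle library, a ratio of 8.64 (7.73 to 9.69). The peptidoglycan-binding protein gene Pglyrp1 had ratios of 2.04 and 5.02, and the lysozyme gene Lyz2 of 1.86 and 4.59. Without the granule-rich cells the vehicle ratio of Ly6g was 6.13 and that of Lcn2 4.22, while the beta-elemene ratio of Ly6g was 15.4. Without cells over 10000 UMIs the vehicle ratio of Ly6g was 7.45 and the beta-elemene ratio of Lcn2 4.90.

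Gelatinase granule and secretory vesicle genes gave 5 of 10 higher in both libraries and none lower. Of these, 3 of 10 were higher in the beta-elemene library and 2 of 9 in the vehicle library without the granule-rich cells, and after thinning 2 of 7 in each, where the median log2 ratio was 0.21 and 0.10. Anxa1, which encodes the lipid-binding annexin that limits neutrophil adhesion, had ratios of 2.19 and 5.37 in the beta-elemene and vehicle libraries, and the membrane protease gene Mmp25 of 2.12 and 2.52. Mmp9, the gelatinase itself, was at 1.42 and 1.33, under the limit. Of 3 stefin A genes, which encode inhibitors of cysteine proteases, Stfa3 had ratios of 6.02 and 5.08 and Stfa2 of 2.54 and 1.65. The remaining gene was not above 1 in either library. Summed over the measured stefin A genes, the log2 ratio of CPM was 0.41 in the beta-elemene library and 0.05 in the vehicle library. Reads of the near-identical stefin A copies can be split among them, so their values are uncertain.

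Other genes highest in Retnlg/Mmp8 neutrophils in both libraries came from several families. Ifitm6, of the interferon-induced transmembrane family, had 832 CPM against 119 CPM in Retnlg/Mmp8-low neutrophils of the beta-elemene library, a ratio of 7.00 (5.95 to 8.28), and 1180 against 30.9 CPM in the vehicle library, a ratio of 38.2 (26.1 to 58.1). Without the granule-rich cells these ratios were 10.85 and 15.9. Lrrk2, a large kinase, had ratios of 6.47 and 2.90, Prok2, a secreted prokineticin, of 2.91 and 9.95, and Wfdc21, a small secreted protein, of 3.13 and 4.32. S100a6, a calcium-binding relative of S100a8 that took no part in the rule, was detected in 96.4% of Retnlg/Mmp8 neutrophils in the beta-elemene library and 96.0% in the vehicle library, with ratios of 2.99 and 2.87. The glutathione transferase gene Mgst1 had ratios of 2.84 and 3.39, the actin-binding calponin gene Cnn2 2.78 and 4.77, and Atxn10 3.004 and 2.78. Wfdc17, a secreted inhibitor of inflammation in mouse macrophages, stood at 9311 CPM in the beta-elemene library and 10276 CPM in the vehicle library, with ratios of 2.76 and 3.33. Alox5ap, which hands arachidonic acid to the leukotriene-making enzyme, had ratios of 2.53 and 2.42.

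**Figure D2:**
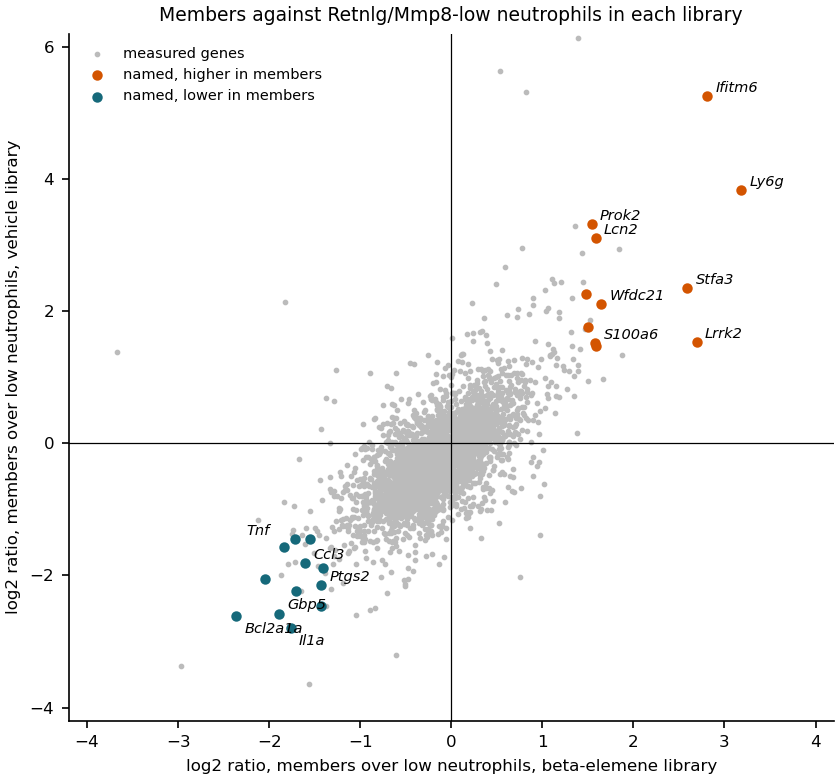
Each point is a gene measured in both libraries, with the log2 ratio of Retnlg/Mmp8 neutrophils (members) over Retnlg/Mmp8-low neutrophils in the beta-elemene library on the horizontal axis and in the vehicle library on the vertical axis. Named genes highest in both (orange) and lowest in both (teal) lie in the upper right and lower left, Ly6g at ratios of 9.06 and 14.3 and Bcl2a1a at 0.195 and 0.164, and 2 genes fall outside the axes.

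Inflammatory genes went the other way. Of 22 genes of inflammatory cytokines and NF-kB signalling 15 were lower in Retnlg/Mmp8 neutrophils in both libraries and none was higher, with a median log2 ratio of -0.76 in the beta-elemene library and -1.19 in the vehicle library. Il1b, the major inflammatory cytokine of tumour neutrophils, had 6968 CPM in Retnlg/Mmp8 neutrophils and 11795 CPM in Retnlg/Mmp8-low neutrophils of the beta-elemene library, a ratio of 0.591, and 4952 and 9637 CPM in the vehicle library, a ratio of 0.514. Its relative Il1a had ratios of 0.294 and 0.144, Tnf 0.280 and 0.336, the adhesion molecule gene Icam1 0.307 and 0.212 and the inducible cyclooxygenase gene Ptgs2 0.372 and 0.226. These genes were thus lower in cells with Retnlg or Mmp8 but not absent from them.

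Of 8 chemokine genes 4 were lower in both libraries. Ccl3 (chromosome 11, 83647844 to 83649355), which draws monocytes and T cells, had 562 CPM in Retnlg/Mmp8 neutrophils and 1709 CPM in Retnlg/Mmp8-low neutrophils of the beta-elemene library, a ratio of 0.329 (0.305 to 0.355), and 410 and 1443 CPM in the vehicle library, a ratio of 0.284 (0.254 to 0.318). Cxcl2, a ligand of Cxcr2 itself, had ratios of 0.523 and 0.492. Among receptors for attractants, the chemerin-binding receptor gene Ccrl2 was at 0.426 and 0.298 and the platelet-activating factor receptor gene Ptafr at 0.615 and 0.524, and these 2 were the ones lower among 9 measured. Cxcr2 and Csf3r, which the rule used, had ratios of 0.961 and 1.22 and of 1.04 and 0.890.

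Survival genes of the Bcl2a1 family had some of the lowest ratios, with Bcl2a1a at 0.195 and 0.164, although its copies are nearly identical. In the survival and death list 6 of 15 genes were lower in both libraries, among them 3 Bcl2a1 copies, the inflammasome sensor gene Nlrp3 at 0.434 and 0.426, the apoptosis inhibitor gene Birc3 at 0.565 and 0.523 and Bax, which promotes death rather than survival. The lectin receptor gene Clec4n was at 0.242 and 0.241, the membrane rupture gene Ninj1 at 0.377 and 0.270, the stefin relative Csta3 at 0.372 and 0.182, the ribokinase gene Rbks at 0.305 and 0.366 and the amino acid transporter gene Slc38a1 at 0.342 and 0.366. After thinning the vehicle ratios were 0.652 for Tnf, 0.730 for Slc38a1 and 0.513 for Rbks, with intervals that included 1.

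Some interferon-response genes were also lower in Retnlg/Mmp8 neutrophils. In the type I list 7 of 19 genes were lower in both libraries, with Rsad2, an antiviral radical enzyme, at 0.440 and 0.231 and Isg15, a ubiquitin-like protein, at 0.563 and 0.359, while Ifitm3, a membrane protein that blocks virus entry, was the 1 gene higher, at 1.597 and 1.53. In the interferon gamma list 1 of 15 was lower in both, a share below that of all measured genes, and this was the guanylate-binding protein gene Gbp5 at 0.269 and 0.168. Of 14 genes of MHC class I presentation 4 were lower, among them B2m at 0.577 and 0.546. Of 14 genes described in tumour-associated neutrophils 3 were lower, and the hypoxia-induced lipid droplet gene Hilpda was at 0.845 and 0.569, under the limit in the beta-elemene library.

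Glycolysis genes separated little. Of 19 glycolysis genes only the glucose transporter gene Slc2a3 was higher in both libraries, at 1.54 and 2.05, and only the hexokinase gene Hk2 lower, at 0.513 and 0.384. Of 7 genes of the NADPH oxidase, which makes superoxide, only the small GTPase gene Rac2 was higher in both, at 1.72 and 2.06. Nos2, the inducible nitric oxide synthase, had ratios of 1.54 and 2.36.

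Levels were also followed across the whole range of Retnlg and Mmp8, in neutrophils thinned to 1000 UMIs. The 88 beta-elemene and 60 vehicle neutrophils under 1000 UMIs were left out, and 73 and 47 of these were Retnlg/Mmp8-low. In the beta-elemene library 595, 143, 167, 106 and 107 cells had 0, 1, 2 to 4, 5 to 9 and 10 or more UMIs of the pair. In the vehicle library the numbers were 393, 81, 78, 50 and 72. Lcn2 stood at 3.77, 13.2, 9.10, 14.3 and 30.4 UMIs per 10000 along these bins in the beta-elemene library and at 4.61, 7.78, 13.5, 15.2 and 35.97 in the vehicle library. Ccl3 stood at 18.3, 8.60, 7.55, 3.21 and 4.30 in the beta-elemene library and at 15.9, 9.26, 5, 2.80 and 1.67 in the vehicle library. Il1b was lower in each next bin in both libraries, with 122 UMIs per 10000 at 0 and 45.6 at 10 or more in the beta-elemene library, and 97.1 and 47.8 in the vehicle library. Ptgs2 had 7.71 UMIs per 10000 in the bin at 0 and 1.59 in the bin at 10 or more in the beta-elemene library, and 6.06 and 0.694 in the vehicle library. Csf3r showed no such order, with bins between 6.98 and 10.2 in the beta-elemene library and between 7.08 and 10.0 in the vehicle library. Il1b was above the vehicle value in the first 4 bins of the beta-elemene library and S100a8 below it in all 5. Csf3r and S100a8 belong to the rule, so their levels also follow how the cells were chosen.

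**Figure D3:**
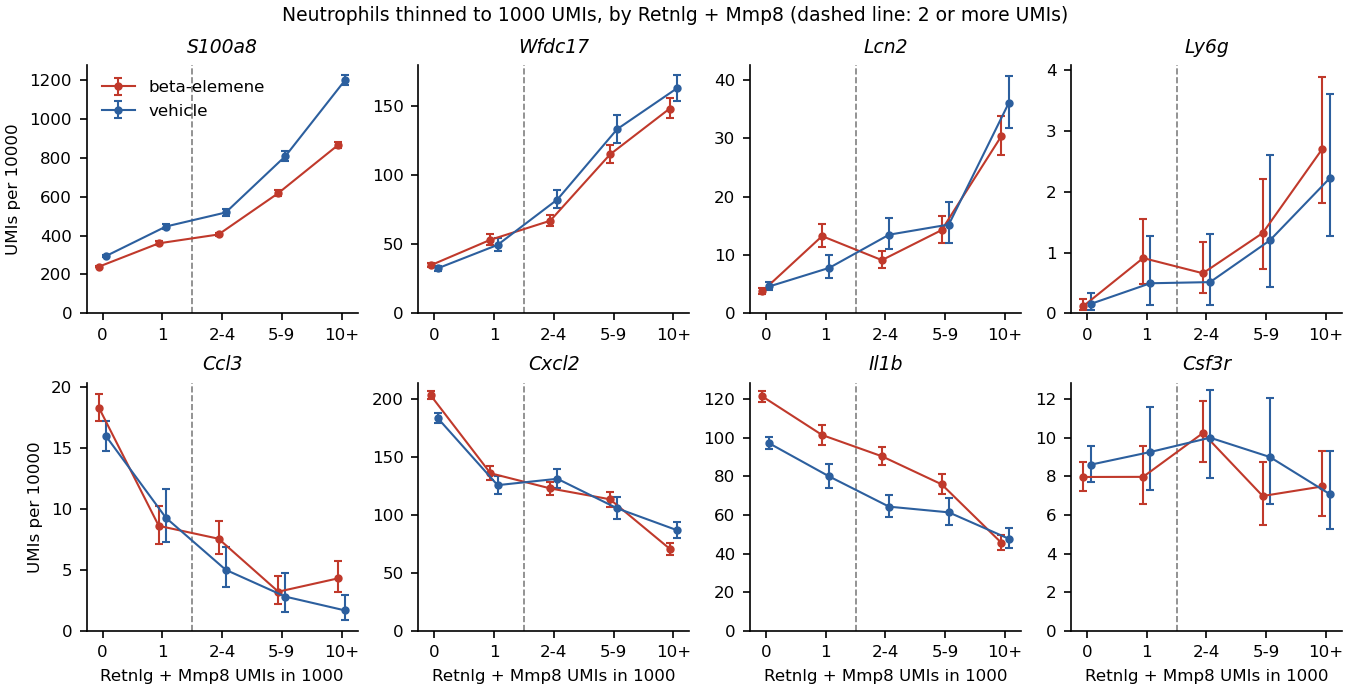
Level of 8 genes, in UMIs per 10000, in neutrophils thinned to 1000 UMIs and binned by the UMIs of Retnlg and Mmp8 that remained, with a line for the beta-elemene library and a line for the vehicle library and exact 95% Poisson intervals. S100a8, Wfdc17, Lcn2 and Ly6g are highest in the bin of 10 or more, and Cxcl2 and Il1b are lowest there in both libraries. Ccl3 is lowest there in the vehicle library and at 5 to 9 in the beta-elemene library, and Csf3r shows no order. S100a8 and Csf3r belong to the rule that chose the cells.

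A small set of cells held nearly all transcripts of the specific granule genes Ngp, Camp, Ltf and Chil3. In the beta-elemene library 43 Retnlg/Mmp8 neutrophils had at least 2 of these UMIs, and 11 cells with at least 50 held 96.3% of them. In the vehicle library the numbers were 37 and 15, and the 15 held 97.9%. These granule-rich cells were deep, with median totals of 8875 UMIs in the beta-elemene library and 10683 in the vehicle library. Retnlg/Mmp8-low neutrophils included 3 such cells in the beta-elemene library and 0 in the vehicle library. Granule-rich cells are therefore few, and sums of these genes rest on them.

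Against the other Retnlg/Mmp8 neutrophils, the 43 beta-elemene and 37 vehicle cells with granule transcripts had more Ly6g, with ratios of 8.48 and 9.82, and more Lcn2, with 7.01 and 5.86. Cd177, which holds a protease on the neutrophil surface, had ratios of 14.2 and 10.3, the oxidase subunit gene Cybb 15.4 and 8.70, Lyz2 8.39 and 7.56, Ifitm6 8.85 and 11.4 and Anxa1 5.94 and 6.67. Their Il1b was lower, at ratios of 0.390 and 0.361, as were Ccl3 at 0.105 and 0.290 and Cxcl2 at 0.332 and 0.375. Csf3r, at 0.602 and 0.475, and Retnlg, at 1.85 and 1.52, belong to the rule. The UMI minimum of the rule weighs more on shallow cells, so these ratios partly describe how the cells were chosen. Cells with granule transcripts had median depths of 5789 UMIs in the beta-elemene library and 6731 in the vehicle library. The other Retnlg/Mmp8 neutrophils had 2522 and 2585, and the part of depth was not tested. Cebpe, the transcription factor of the specific granule stage, had 16 of 19 UMIs in cells with granule transcripts in the beta-elemene library. In the vehicle library it had 21 of 21 there. Of 8 genes of the earlier azurophil granule, Mpo had 0 UMIs in Retnlg/Mmp8 neutrophils of the beta-elemene library and 2 in those of the vehicle library, Elane and Ctsg 0 in both, and Prtn3 9 and 8. Ctsc, which activates granule proteases, had 103 and 81 UMIs, and Srgn, the proteoglycan core of granules in many blood cells, stood at 7875 and 6706 CPM. The division genes Mki67 and Top2a had ratios of 9.48 and 7.50 in the vehicle library, where 24 and 38 UMIs lay in the granule-positive cells, and of 0.988 and 0.823 in the beta-elemene library, where 4 and 4 did.

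The beta-elemene and vehicle libraries were then compared within the Retnlg/Mmp8 neutrophils. Genes of the interferon response and of antigen processing for MHC class I were higher in the beta-elemene library, as were some chemokine genes. Specific granule genes were lower there, with values that rest on the few granule-rich cells. Of 3967 measured genes 200 (5.04%) were at least 1.5-fold higher in the beta-elemene library and 174 (4.39%) at least 1.5-fold lower. The median log2 ratio of all measured genes was 0.05. Where cells were thinned to 1000 UMIs the counts were 61 and 41 of 1299 measured genes.

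Of 17 measured genes of the interferon gamma list 11 were higher and 0 lower, the ratios of all 17 were above 1, and the median log2 ratio was 0.65. Igtp and Irgm2, immunity-related GTPases on chromosome 11 (58199556 to 58207591 and 58199618 to 58222782), had 79.7 and 54.0 CPM in the beta-elemene library, against 34.8 and 20.9 CPM in the vehicle library. Their ratios were 2.29 (1.57 to 3.44) and 2.59 (1.59 to 4.39), but their annotations overlap, so reads may be split between them. Nmi, an interferon-induced binding protein, had a ratio of 2.22 (1.37 to 3.74), and Socs1, an inhibitor of the receptor kinases, of 2.28 (1.22 to 4.59). After thinning to 1000 UMIs Igtp was at 1.27 (0.610 to 2.84) and Nmi at 1.64 (0.630 to 5.02), with intervals that included 1. Irgm2 was then at 3.31 (1.28 to 10.9). The transcription factor gene Irf1 stood at 1.57 (1.32 to 1.86) and the guanylate-binding protein gene Gbp2 at 1.85 (1.46 to 2.36). Cd274, which encodes the checkpoint ligand PD-L1, had 540 CPM in the beta-elemene library and 356 CPM in the vehicle library, a ratio of 1.52 (1.34 to 1.72). The receptor genes Ifngr1 and Ifngr2 were at 1.05 (0.840 to 1.31) and 1.20 (0.857 to 1.70), and the chemokine gene Cxcl10 was at 1.05 (0.737 to 1.52).

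The type I interferon list gave 7 of 19 higher and 0 lower, with a median log2 ratio of 0.56. Isg15 (chromosome 4, 156199424 to 156200818) had 1032 CPM in the beta-elemene library and 461 CPM in the vehicle library, a ratio of 2.24 (2.02 to 2.49). It was detected in 61.0% of Retnlg/Mmp8 neutrophils of the beta-elemene library and 47.8% of those of the vehicle library, and its level in barcodes that were not neutrophils was 106 and 69.5 CPM. Ifit1, which binds viral RNA, had 57.0 and 21.8 CPM, a ratio of 2.61 (1.63 to 4.37), with 1 cell holding 19.4% of its UMIs in the beta-elemene library and a ratio of 1.04 after thinning. Zbp1, a sensor of viral nucleic acid, had a ratio of 2.04 (1.54 to 2.73), Slfn5 1.93 (1.34 to 2.85) and Rsad2 1.72 (1.34 to 2.24). Herc6, which in the mouse attaches Isg15 to its targets and belonged to no list, had a ratio of 2.17 (1.46 to 3.30). The regulator gene Irf7 was at 1.47 (1.09 to 2.02), under the limit, and Oas2 at 0.941 (0.634 to 1.41).

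**Figure D4:**
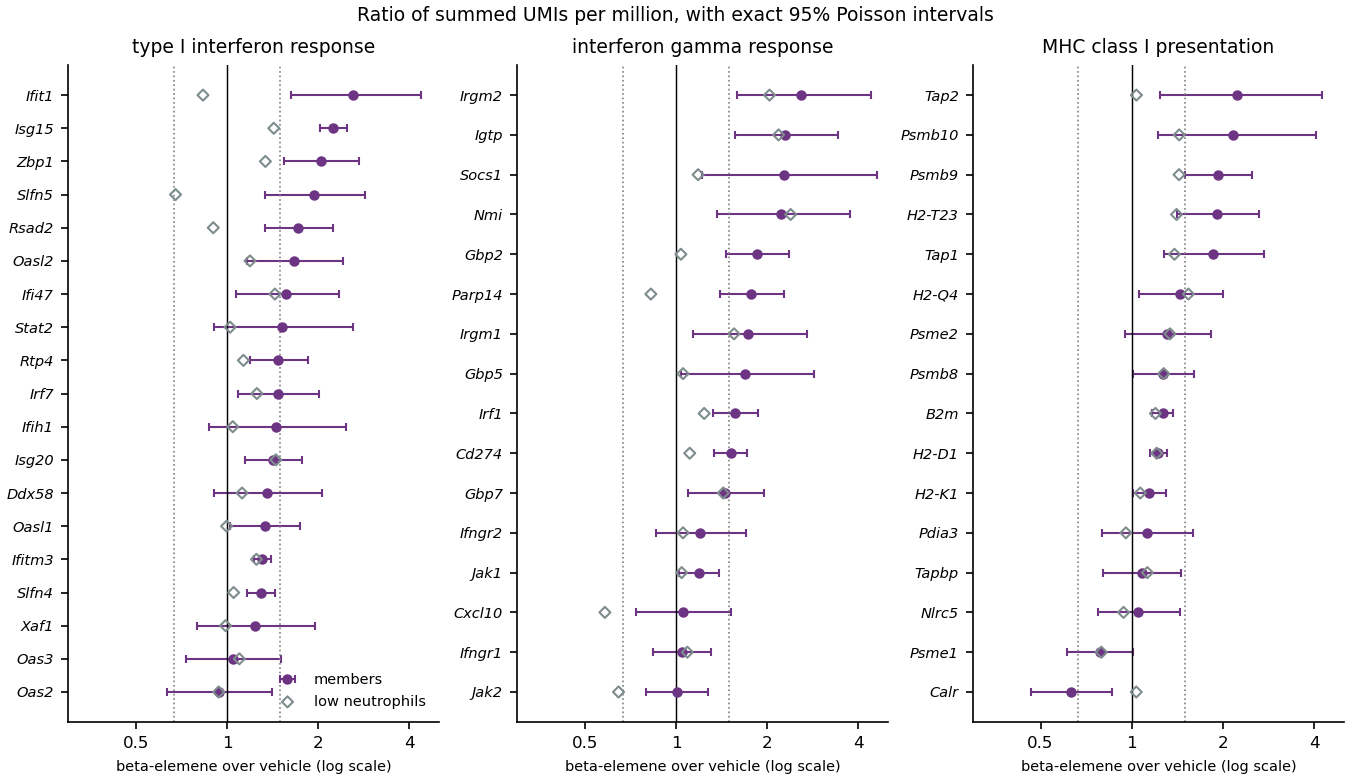
Ratio of CPM, beta-elemene over vehicle, on a log axis for genes of 3 lists, with filled points and exact 95% Poisson intervals for Retnlg/Mmp8 neutrophils (members) and open diamonds for Retnlg/Mmp8-low neutrophils, and dotted lines at 1.5-fold. In Retnlg/Mmp8 neutrophils Isg15 lies at 2.24 and Igtp at 2.29, and the interferon gamma genes shown all lie above 1.

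In Retnlg/Mmp8-low neutrophils of the same tumours the interferon gamma list gave 4 higher and 2 lower of 19, with a median log2 ratio of 0.15, and the type I list 0 higher and 0 lower of 21, with a median of 0.13. There 2.85% of measured genes were higher and 4.75% lower. The difference between the 2 kinds of neutrophil was not tested. Without the granule-rich cells the interferon gamma list in Retnlg/Mmp8 neutrophils gave 7 genes higher with a median of 0.50, and the type I list 5 with a median of 0.48. After thinning to 1000 UMIs fewer genes were measured, and 2 of 10 interferon gamma and 2 of 9 type I genes were higher. The medians were then 0.34 and 0.42. Over all measured genes 178 of 3725 were higher without the granule-rich cells and 61 of 1299 after thinning.

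Class I presentation genes gave 5 of 16 higher and 1 lower, with a median log2 ratio of 0.34. Those higher were the peptide transporter genes Tap1 at 1.85 (1.28 to 2.74) and Tap2 at 2.22 (1.24 to 4.24), the immunoproteasome genes Psmb9 at 1.92 (1.49 to 2.49) and Psmb10 at 2.16 (1.22 to 4.04), and the nonclassical class I gene H2-T23 at 1.91 (1.41 to 2.62). The abundant B2m was at 1.26 (1.17 to 1.37) and the classical genes H2-D1 and H2-K1 at 1.22 (1.15 to 1.30) and 1.14 (1.01 to 1.29), all under the limit. Calr, a chaperone of the endoplasmic reticulum, was lower, at 0.632 (0.463 to 0.863). Class I genes are near-identical copies, so their separate values are uncertain. In Retnlg/Mmp8-low neutrophils the list gave 1 higher and 0 lower of 18, with a median log2 ratio of 0.31. The median of all measured genes there was -0.03. Thinning to 1000 UMIs left 2 of 8 class I genes higher in Retnlg/Mmp8 neutrophils, with a median of 0.15. For all measured genes the median was then 0.06.

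Among genes that neutrophils use to signal, 3 of 9 chemokine genes were higher and 0 lower in the beta-elemene library. Cxcl3, a Cxcr2 ligand, had 833 CPM in the beta-elemene library and 437 CPM in the vehicle library, a ratio of 1.91 (1.71 to 2.13), Ccl9 a ratio of 1.77 (1.07 to 3.02) and Ccl6 one of 1.54 (1.37 to 1.72). Cxcl2 was at 1.15 (1.12 to 1.18) and Ccl3 at 1.37 (1.22 to 1.54), under the limit. In the inflammatory list 2 of 20 were higher, Ptgs2 at 1.90 (1.57 to 2.31) and the mRNA-decay factor gene Zfp36 at 1.52 (1.27 to 1.82), while Il1b had 6968 CPM in the beta-elemene library and 4952 CPM in the vehicle library, a ratio of 1.41 (1.36 to 1.46). Tgfb1, a suppressive cytokine, had a ratio of 2.04 (1.27 to 3.41). Leaving out the granule-rich cells, 2 of 8 chemokine genes and 1 of 20 inflammatory genes were higher.

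Lipid and tumour-associated genes were also counted. Of 9 lipid genes 3 were higher, Hilpda at 1.63 (1.51 to 1.77), the triglyceride lipase gene Pnpla2 at 1.98 (1.37 to 2.93) and the acyl-CoA synthetase gene Acsl1 at 1.89 (1.11 to 3.35). Leaving out the granule-rich cells, 1 of 9 was higher. Of 14 tumour-associated genes 3 were higher, Hilpda, Cd274 and the transglutaminase gene Tgm2 at 1.78 (1.43 to 2.22), and 1 was lower. That gene was Arg1, the arginine-depleting enzyme of suppressive myeloid cells, at 14.1 CPM in the beta-elemene library and 76.5 CPM in the vehicle library, where 1 cell held 62.3% of its UMIs. Among tumour-associated genes 1 was higher and 1 lower without the granule-rich cells. Arg2, its mitochondrial relative, was at 1.12 (1.02 to 1.23). No glycolysis gene passed the limit in either direction, and after thinning 3 of 16 were higher. Ratios were above 1 for 18 of 19, against 56.1% of all measured genes, with a median log2 ratio of 0.21. Retnlg/Mmp8-low neutrophils were alike, with 16 of 19 above 1, against 46.3% of all measured genes, and a median of 0.20. None of 15 survival and death genes passed the limit either, with Mcl1 at 1.45 (1.37 to 1.53). Of 15 transcription factor genes 2 were higher, and 1 without the granule-rich cells. Klf2 was higher at 1.85 (1.59 to 2.16) and Nfil3 at 1.51 (1.28 to 1.78), and Cebpb, which drives emergency granulopoiesis, stood at 1.49 (1.43 to 1.55). Of 18 stress genes, a list that also follows tissue dissociation, the heat shock genes Hspa1a and Hspa1b were higher, at 1.77 (1.20 to 2.66) and 2.002 (1.31 to 3.15), and none was lower.

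Further genes among the 12 highest ratios belonged to no shared list. Tmem140 was at 2.34, the phosphate transporter gene Slc20a1 and the general transcription factor gene Gtf2b both at 2.22, the hypoxia-induced Ankrd37 at 2.18 and the RNA exosome gene Exosc4 at 2.15. Ccl8, a monocyte-attracting chemokine, had 69.3 CPM in the beta-elemene library and 32.8 CPM in the vehicle library, a ratio of 2.12, but 325 and 250 CPM in barcodes that were not neutrophils. Free RNA gives neutrophils UMIs of such genes, and its part was not tested.

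Specific granule genes were among the lowest ratios. Of 12 specific granule genes 0 were higher and 3 lower in the beta-elemene library, with a median log2 ratio of -0.40. Ngp (chromosome 9, 110419747 to 110423012), a cathelicidin-like granule protein, had 1963 CPM in the beta-elemene library and 4650 CPM in the vehicle library, a ratio of 0.422 (0.404 to 0.442). Ltf, which encodes lactoferrin, had 572 and 1142 CPM, a ratio of 0.501 (0.459 to 0.547), and Cd177 had 131 and 218 CPM, a ratio of 0.598 (0.493 to 0.725). These values rest on the 11 beta-elemene and 15 vehicle granule-rich cells. Without them Ngp had a ratio of 0.934 and Ltf of 0.246, without cells over 10000 UMIs the ratios were 0.947 and 1.165, and the list medians were -0.07 and 0.03. Retnlg/Mmp8-low neutrophils went the other way, with 8 of 10 specific granule genes higher in the beta-elemene library, where 3 granule-rich cells lie in that class.

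Gelatinase granule genes gave 3 of 10 lower, Padi4 at 0.492 (0.339 to 0.712), Mmp25 at 0.537 (0.364 to 0.788) and Ceacam10 at 0.595 (0.400 to 0.884). Padi4 encodes the enzyme that citrullinates histones in neutrophil extracellular traps, and its ratio after thinning was 3.625. Without cells over 10000 UMIs it was 0.762 (0.482 to 1.21). No gelatinase granule gene was lower after thinning, without cells over 10000 UMIs or without the granule-rich cells. Other low ratios were those of the pentose phosphate enzyme gene G6pdx at 0.491, the transporter gene Abca13 at 0.457, Tbc1d8 at 0.477, the chromatin factor gene Bptf at 0.510 and the lipolysis co-activator gene Abhd5 at 0.492, which was at 1.04 after thinning. Without the granule-rich cells Abca13 was at 0.789, Tbc1d8 at 0.862 and G6pdx at 0.645, each with an interval that included 1. The oxidase subunit gene Cybb was at 0.608 (0.506 to 0.729), and none of 7 oxidase genes was lower without the granule-rich cells, in which Cybb was high. The inhibitory Fc receptor gene Fcgr2b was at 0.618 (0.432 to 0.882). The growth factor gene Areg was at 0.433, the nucleic acid binding factor gene Purb at 0.463, the Wnt factor gene Tcf7l2 at 0.486 and Ndufb1-ps at 0.497. Like Padi4 and Bptf, they had higher CPM in barcodes that were not neutrophils than in these cells in both libraries. Areg had 112 and 145 CPM there, against 33.1 and 76.5 CPM. Those barcodes also had less of each gene in the beta-elemene library, with Purb at 75.85 and 132 CPM and Ndufb1-ps at 222 and 344 CPM. The part of this in the ratios was not tested.

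Shares of cells with a programme were compared at equal depth, in cells chosen on their full counts. In all, 505 beta-elemene and 265 vehicle cells were thinned to 1000 UMIs, and 15 and 13 shallower cells were left out. A cell counted with at least 2 UMIs of a programme's genes. The interferon programme of Ifit1, Ifit3, Rsad2 and Isg15 was present in 28.1% (24.2 to 32.3) of Retnlg/Mmp8 neutrophils of the beta-elemene library and 15.1% (11.0 to 20.0) of those of the vehicle library, and before thinning in 45.4% and 34.9%. T cells, at median depths of 5480 and 5306 UMIs before thinning, had it in 2.84% and 3.16%. Retnlg/Mmp8-low neutrophils had it in 36.9% and 29.3%. The granule programme of Ngp, Camp, Ltf and Chil3 was present in 3.96% (2.44 to 6.05) of Retnlg/Mmp8 neutrophils of the beta-elemene library and 7.55% (4.67 to 11.4) of those of the vehicle library, before thinning in 8.27% and 13.3%. Of T cells 0 of 528 and 0 of 506 had it after thinning, and 1 of 528 and 2 of 508 before.

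The chemokine programme of Ccl3, Ccl4 and Cxcl3 was present in 25.3% (21.6 to 29.4) of Retnlg/Mmp8 neutrophils of the beta-elemene library and 23.8% (18.8 to 29.4) of those of the vehicle library, before thinning in 37.1% and 34.9%. Retnlg/Mmp8-low neutrophils had it in 41.6% and 36.9%, and T cells in 2.84% and 0.988%. The tumour-associated programme of Siglecf, Hilpda, Egln3 and Spp1 was present in 43.2% (38.8 to 47.6) and 35.8% (30.1 to 41.9), before thinning in 67.7% and 65.8%, and in 15.5% and 15.6% of T cells. Programmes shared cells unevenly. Of 20 granule-positive cells in each library 1 also had the chemokine programme, while the tumour-associated programme was present in 63.3% of chemokine-positive cells against 36.3% of the others in the beta-elemene library and in 63.5% against 27.2% in the vehicle library.

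**Figure D5:**
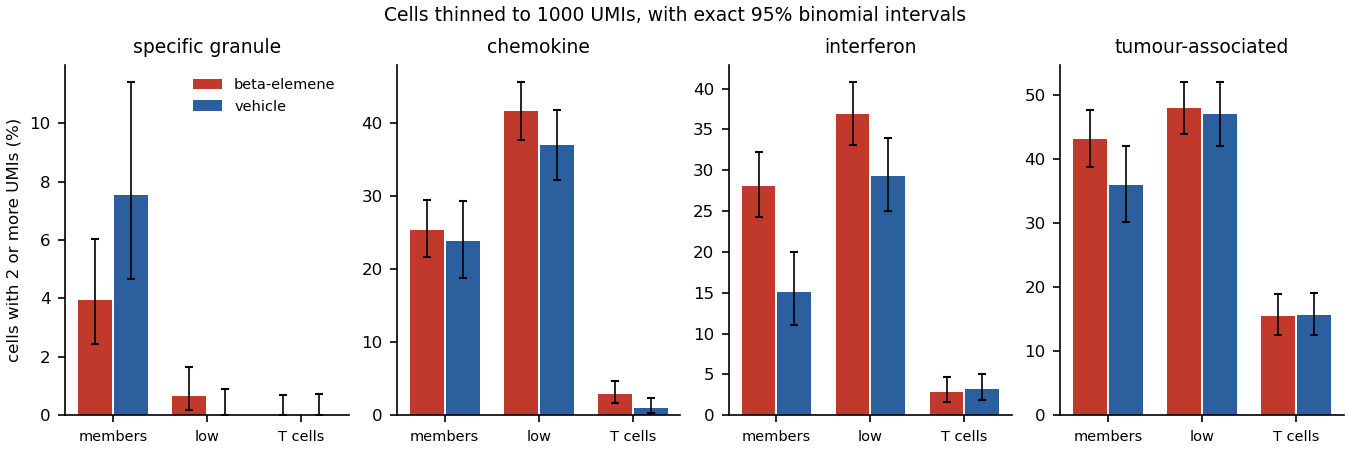
Percentage of cells with at least 2 UMIs of 4 gene programmes after thinning to 1000 UMIs, in Retnlg/Mmp8 neutrophils (members), Retnlg/Mmp8-low neutrophils (low) and T cells, with bars for the beta-elemene and vehicle libraries and exact 95% binomial intervals. In Retnlg/Mmp8 neutrophils the interferon programme lies at 28.1% in the beta-elemene library and 15.1% in the vehicle library, with intervals that do not overlap, and each panel has its own vertical axis.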

How the data were processed

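Cells of 2 tumour libraries, 1 per group, were compared from the UMI counts per gene and barcode that the authors deposited. The matrices come from Cell Ranger 7.1.0, per the file headers, and Cell Ranger, STAR and build mm10 are named in the submitters' processing notes. The cells, lists and comparisons were chosen with earlier results of these data known.

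With 1 library per group no test across animals exists. UMIs were summed over cells, left as raw counts and scaled by total UMIs, and ratios carry exact 95% Poisson intervals, shares exact binomial intervals and differences of shares Newcombe intervals. PCR copies were collapsed by UMI, so these cover counting error only. Genes under 50 UMIs in both sums together were not measured. Called doublets (Scrublet in scanpy 1.11.5, 2.90% of beta-elemene and 3.13% of vehicle barcodes) were kept.

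Genes outside the lists were named by a rule: at least 100 UMIs, an interval excluding 1, UMIs in at least 5% of cells and at most 20% from 1 cell of the higher library, a level at least 20% of that in other barcodes, and the 12 highest and 12 lowest, of which some are not reported here. Mitochondrial, ribosomal, haemoglobin, immunoglobulin, T cell receptor, unnamed and rule genes were not eligible. From each list the most abundant and most extreme genes may be named, and a few further members (Ifngr1, Ifngr2, Cebpb, Mmp9, Bax, Nlrp3 and others) were chosen after their values were seen. Alternatives changed the cell limits, the scaling, the depth and the UMI minimum. Scripts in Python 3.11.15 with numpy 2.4.6, scipy 1.17.1 and pandas 2.3.3 were tested on simulated data.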

Additional observations from a re-analysis of the deposited data

Results flagged for a closer look

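In 13 genes the ratio of Retnlg/Mmp8 neutrophils over Retnlg/Mmp8-low neutrophils lay beyond 1.5-fold in opposite directions in the 2 libraries. The differences were not tested, and with 1 library per group they have no replicate check. They are given as the log2 ratio in the beta-elemene library minus that in the vehicle library. Replication histones had the most negative differences, with Hist1h1b at -5.045, Hist1h2ap at -3.959 and Hist1h4d at -2.383. In the beta-elemene library 1 Retnlg/Mmp8-low cell held 71.9% of the Hist1h1b UMIs and 74.0% was the top share for Hist1h2ap, and in the vehicle library the top Retnlg/Mmp8 cell held 45.2% and 45.7%.

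Arg1 differed by -1.958 and Inhba, a subunit of activin, by -1.937, and 1 vehicle Retnlg/Mmp8 cell held 62.3% of the Arg1 UMIs and 54.7% was the top share for Inhba. Fabp4, a fatty acid carrier of fat cells and endothelium, differed by 2.778, with 1 beta-elemene Retnlg/Mmp8 cell holding 69.2% and 1 vehicle Retnlg/Mmp8-low cell 65.2% of its UMIs. Sparc, a matrix protein of stromal cells, differed by 1.421, with 55.2% in 1 beta-elemene Retnlg/Mmp8 cell. The remaining differences were 2.356 for Ptprk, 1.763 for Ldlrad4, 1.484 for Ext1, 1.389 for Mast4, -1.57 for Gpc3 and -1.676 for Tnks. The part of these single cells in the other differences was not tested.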

How the results depend on the processing

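No paired analysis was possible because each group is 1 library. The share of Retnlg/Mmp8 neutrophils among neutrophils differed by 4.56 percentage points at a limit of 1 UMI, 3.01 at 3 UMIs and 3.38 after thinning to 1000 UMIs, each with an interval that includes 0. Their share of kept barcodes differed by 3.91 points without cells over 10000 UMIs, at 9.82% in the beta-elemene library and 5.91% in the vehicle library. That setting kept 5215 of 10861 and 4502 of 10803 barcodes, but 512 of 520 and 266 of 278 Retnlg/Mmp8 neutrophils. The shares and their difference in points were therefore larger through the smaller totals. After thinning, 61 genes were higher and 41 lower in the beta-elemene library, and 44 higher and 106 lower in Retnlg/Mmp8 than in Retnlg/Mmp8-low neutrophils of both libraries. Genes lower in the beta-elemene library numbered 109 without cells over 10000 UMIs, 272 at a minimum of 20 UMIs and 105 at 100, where 214 were lower in Retnlg/Mmp8 than in Retnlg/Mmp8-low neutrophils. The last comparison gave 205 higher and 147 lower with median scaling and 192 and 157 with totals lacking mitochondrial, ribosomal, Gm42418 and rule genes. Between libraries, thinning put Abhd5 at 1.036 and Padi4 at 3.625, and leaving out cells over 10000 UMIs put Ltf at 1.165, each on the other side of 1, and the cause was not tested. Leaving out cells over 10000 UMIs and leaving out granule-rich cells were chosen after seeing the data. Of the ratios of named genes recomputed under the alternatives, 968 stayed within the counting interval, 109 moved outside it in the same direction and 3 turned. A changed UMI minimum leaves a ratio as it is, so recomputations at 20 and 100 UMIs could only stay and are counted among the 968. Of recomputed list medians, 299 moved beyond a fixed log2 margin and 690 did not. Counts of genes changed by more than 1.5-fold in 12 recomputations and not in 48. Depth limits genes under 50 UMIs, which were not measured.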

Other observations

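Several groups of genes in Retnlg/Mmp8 neutrophils were not described above. Of 9 measured attractant receptor genes none was at least 1.5-fold apart between the beta-elemene and vehicle libraries, with a median log2 ratio of 0.09, close to the 0.05 of all measured genes. Of 9 suppressive myeloid genes Tgfb1, Ptgs2 and Cd274 were higher in the beta-elemene library and Arg1 lower, with a median of 0.04. In the 4 measured cell division genes 2 were lower, among them Top2a, the topoisomerase of dividing cells, at 17.2 CPM in the beta-elemene library and 49.6 CPM in the vehicle library. Of its UMIs in the vehicle library 38 lay in granule-positive cells and 12 in the others.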
